A study of Mus musculus with 24 samples.

Results

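A set of 10 genes of Wnt signalling was followed by RNA-seq in mouse stromal vascular cells of inguinal white fat, before and after adipocyte differentiation. They are the ligands Wnt5a, Wnt5b, Wnt6 and Wnt10b, the secreted antagonists Sfrp1, Sfrp2, Dkk2 and Dkk3, the matricellular protein gene Wisp2, and the feedback gene Axin2. The genes were chosen by name, 10 of the 24825 genes listed for each library. The rule that selects them uses no measured values, although earlier results of these data were known when they were chosen. Expression was given as FPKM, in which fragments are scaled by the length of the gene and the size of the library. Each level is thus relative to its whole library, and a comparison between groups depends on this scaling. Other scalings are given below.

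Wnt ligands are secreted lipid-modified proteins that bind Frizzled receptors. When the Lrp5 or Lrp6 co-receptor is engaged as well, β-catenin is spared from degradation and activates genes together with TCF and LEF factors. Other ligands, with Wnt5a as the usual example, act mostly through routes that do not need β-catenin. In fat tissue, β-catenin signalling is known to hold precursors back from becoming adipocytes, and Wnt10b is the ligand best known for this. Sfrp proteins resemble the ligand-binding part of Frizzled and bind Wnt proteins outside the cell, Dkk2 acts at the co-receptors, and Axin2 is induced by β-catenin and limits it in turn. Dkk3 is counted here with the antagonists by its family.

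All cells came from inguinal stromal vascular fraction (a mixed preparation that holds adipocyte precursors) of Nfia flox/flox mice, in which exon 2 of Nfia lies between loxP sites. They were immortalised with SV40 large T antigen and infected with retroviral vectors, so every group shares the floxed alleles and the large T antigen. The 4 cell types were ctrl (empty vector), Cre (Cre recombinase), Cre + NFIA (Cre recombinase plus the whole NFIA protein with a 3xFLAG tag) and Cre + NFIA Δpro#3 (the same, but with NFIA that lacks a proline-rich segment near its C-terminus). NFIA, nuclear factor I-A, is a transcription factor that promotes brown and beige adipocyte differentiation. Each cell type was sampled at day 0, when induction starts, and at day 7 of a thermogenic differentiation protocol with isobutylmethylxanthine, indomethacin, dexamethasone, insulin, T3 and rosiglitazone. There were 3 libraries in each of the 8 groups, 24 in all. How many mice or clones the cells stand for is not given, and nothing says that the replicates were separate cultures, so the p-values measure the spread between these libraries, which may be technical. The transgenes were driven from a retroviral vector, and the Nfia level in the cells that carry them was above that of the endogenous gene.

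Libraries held 7.73 to 13.09 M counted reads at day 0 and 9.15 to 14.62 M at day 7, and a count of 0 allows up to 3 reads in a library, for counting error only. Nfia stood at 6.47 ± 0.264 FPKM (SD, n = 3) in ctrl and 6.21 ± 0.773 in Cre at day 0, and at 72.4 ± 2.63 and 60.7 ± 1.01 in Cre + NFIA and Cre + NFIA Δpro#3. A gene-level value covers all exons and the deletion removes exon 2, so the Nfia level does not check the Cre label, and the groups below are the libraries labelled Cre. The 10 adipocyte markers (9 passed the filter below, and Lep had at most 12 reads) summed to 72.5 to 118 FPKM per library at day 0. At day 7 they summed to 22000 to 25600 in ctrl, 4390 to 9430 in Cre, 20600 to 20800 in Cre + NFIA and 840 to 2120 in Cre + NFIA Δpro#3. The 9 precursor and fibroblast markers summed to 2950 to 3400 at day 0, with Dpp4 at no more than 6 reads and Lum at no more than 24. At day 7 this sum was 904 to 989 in ctrl, 1890 to 2170 in Cre, 815 to 911 in Cre + NFIA and 2060 to 2430 in Cre + NFIA Δpro#3. Single genes of this list also differed at day 0. Of 7 tested, 3 were lower in Cre than in ctrl, where 3.33% of all genes passed. In Cre + NFIA against Cre 4 were higher and 2 lower (27.6% of all genes passed). In Cre + NFIA Δpro#3, 1 was higher and 2 lower against Cre (18.3%), and 1 higher and 4 lower against Cre + NFIA (10.1%). The summed smooth muscle and pericyte markers also differed at day 7, from 83.3 to 98.8 in Cre + NFIA to 250 to 306 in Cre + NFIA Δpro#3. Over all libraries Acta2 reached 280 FPKM, and no other gene of this list more than 24.8 (Cnn1). Of the 4 genes tested, 2 were higher and 2 lower in Cre + NFIA Δpro#3 than in Cre + NFIA at day 7. Defining genes of endothelium (Cdh5, at most 3 reads), leukocytes (Ptprc, at most 1 read) and mesothelium (Msln, at most 1 read) were at or near 0, and their lists summed to 1.55 to 10.2, 4.45 to 13.6 and 1.06 to 8.78 FPKM per library. Other genes of these lists were expressed, with highest values of 7.34 FPKM for Tek and 3.73 for Kdr (endothelium). Cd68 reached 8.23, Lyz2 5.71 and Csf1r 3.64 (leukocytes), and Krt19 8.56 (mesothelium). The rest stayed under 1 FPKM. Skeletal muscle markers summed to 0.0266 to 1.71. These are bulk samples, in which fewer cells of a type and less RNA per cell cannot be told apart. The part of the marker differences of day 0 and day 7 in the results below was not tested.

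NFIA belongs to the NFI family, which binds DNA, so the sequences before the start of 3 genes are shown. Sfrp2 and Axin2, an antagonist and a feedback gene, were lower in both cell types with an NFIA transgene than in Cre at day 0. The ligand Wnt10b was higher in both. The Sfrp2 call for Cre + NFIA was lost without Cre replicate 2 or 3 or Cre + NFIA replicate 2 or 3. Each line gives the 250 bases before the transcription start, 5′ to 3′ along the gene, from the RefSeq promoter table (GRCm38.p6). This is a later build than that of the gene positions given further on. Capitals mark the short NFI motif TTGGC or its reverse complement GCCAA.
Sfrp2 (chr3:83766071-83766320, + strand): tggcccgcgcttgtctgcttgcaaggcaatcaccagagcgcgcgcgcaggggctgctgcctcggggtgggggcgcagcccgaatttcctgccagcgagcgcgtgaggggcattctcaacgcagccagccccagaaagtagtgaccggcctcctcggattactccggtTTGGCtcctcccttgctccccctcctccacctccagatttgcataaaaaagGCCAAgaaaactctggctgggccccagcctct
Axin2 (chr11:108920099-108920348, + strand): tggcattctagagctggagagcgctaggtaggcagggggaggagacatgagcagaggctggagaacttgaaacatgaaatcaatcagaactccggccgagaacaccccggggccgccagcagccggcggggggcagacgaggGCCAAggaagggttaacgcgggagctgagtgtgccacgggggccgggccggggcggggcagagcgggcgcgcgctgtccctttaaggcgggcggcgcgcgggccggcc
Wnt10b (chr15:98778151-98778400, - strand): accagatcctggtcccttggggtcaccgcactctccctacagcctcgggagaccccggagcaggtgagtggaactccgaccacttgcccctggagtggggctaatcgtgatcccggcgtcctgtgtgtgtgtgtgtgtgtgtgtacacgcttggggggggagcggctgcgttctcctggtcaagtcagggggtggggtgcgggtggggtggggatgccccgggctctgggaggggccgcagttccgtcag
Both strands were searched for TTGGC, for the paired motif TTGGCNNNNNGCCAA (which holds TTGGC at both ends) and for the TCF/LEF core letters CTTTGAT and CTTTGAA. The Sfrp2 window held TTGGC starting 83 bases before the start site and its reverse complement starting 32 bases before it, the Axin2 window held the reverse complement starting 108 bases before it, and the Wnt10b window held none of the 4 sequences. TTGGC occurs in 41.5% of the 32851 promoter windows in the table, the paired motif in 0.0365%, CTTTGAT in 3.21% and CTTTGAA in 4.46%. A match of this length is therefore common and describes the letters alone. Of the 10 genes, 6 had an entry in the table (Wnt5b, Wnt6, Wnt10b, Sfrp2, Dkk2 and Axin2), and the entries for Wnt5b held CTTTGAT 71 bases before the start in one window and the reverse complement of TTGGC 45 bases before it in another. Wnt5b was higher in Cre + NFIA than in Cre at day 0, a call lost without Cre + NFIA replicate 3, so a match was found in genes that moved either way.

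Sfrp1, Sfrp2 and Wisp2 were far more abundant than the other 7 genes. Sfrp2 (chr3:83570243-83578238, + strand, NCBIM37), a frizzled-related protein made by fat precursors, had the highest level of the 10 genes in the undifferentiated cells. At day 0 its 3 libraries read 640, 655 and 697 FPKM in ctrl, 491, 540 and 554 in Cre, 474, 458 and 448 in Cre + NFIA, and 216, 212 and 220 in Cre + NFIA Δpro#3. At day 7 they read 99.3, 93.4 and 91.1 in ctrl, 189, 181 and 191 in Cre, 45.5, 39.0 and 42.1 in Cre + NFIA, and 102, 110 and 118 in Cre + NFIA Δpro#3. No neighbouring groups in the order of Sfrp2 means overlapped, and all day 0 libraries lay above all day 7 libraries.

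Sfrp1 (chr8:24521974-24560104, + strand) encodes the related antagonist. Its day 0 levels were 204, 212 and 207 FPKM for ctrl and 202, 179 and 184 for Cre, against 80.0, 79.4 and 84.9 for Cre + NFIA and 99.0, 98.5 and 101 for Cre + NFIA Δpro#3. Both cell types with an NFIA transgene were thus well under the other 2 before differentiation. At day 7 the order was different. Sfrp1 read 61.6, 43.5 and 47.5 in ctrl, 160, 136 and 176 in Cre, 34.5, 28.6 and 35.8 in Cre + NFIA, and 156, 157 and 175 in Cre + NFIA Δpro#3. The Cre and Cre + NFIA Δpro#3 libraries overlapped, and both groups lay above every ctrl and Cre + NFIA library.

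Dkk3 (chr7:119259533-119302571, - strand), a divergent member of the Dickkopf family, was far less abundant than the Sfrp genes. Its levels at day 0 were 9.76, 8.47 and 8.83 FPKM in ctrl, 7.84, 7.78 and 8.23 in Cre, 3.74, 4.22 and 3.82 in Cre + NFIA, and 3.55, 2.81 and 3.42 in Cre + NFIA Δpro#3. At day 7 they were 3.04, 1.75 and 1.72, then 5.39, 3.65 and 5.88, then 1.45, 1.16 and 1.58, then 5.49, 5.14 and 5.97 in the same order of groups. As for Sfrp1, Cre and Cre + NFIA Δpro#3 overlapped at day 7 and lay above the other groups. Dkk2 (chr3:131748256-131843257, + strand), an inhibitor at the Lrp5 and Lrp6 co-receptors, was near the limit of detection at day 0, with 0.433 to 0.598 FPKM (20 to 28 reads) in ctrl, 0.101 to 0.209 (3 to 6 reads) in Cre, 0.0858 to 0.152 in Cre + NFIA and 0.211 to 0.264 in Cre + NFIA Δpro#3. At day 7 Dkk2 read 0.681, 0.849 and 0.669 in ctrl, 1.06, 0.619 and 0.978 in Cre, 0.543, 0.780 and 0.665 in Cre + NFIA, and 1.67, 1.74 and 1.32 in Cre + NFIA Δpro#3, the only group there that did not overlap the others.

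Wisp2 (chr2:163646597-163658882, + strand), also named Ccn5, encodes a secreted protein of the CCN family that is made by fat precursors and has been linked to Wnt signalling. Its day 0 levels were 264, 207 and 256 FPKM in ctrl, 214, 214 and 247 in Cre, 166, 152 and 147 in Cre + NFIA, and 210, 196 and 200 in Cre + NFIA Δpro#3. By day 7 it read 76.2, 69.0 and 64.3 in ctrl, 108, 110 and 113 in Cre, 46.7, 46.2 and 54.9 in Cre + NFIA, and 118, 139 and 123 in Cre + NFIA Δpro#3. The cell types did not overlap at day 7, with Cre + NFIA lowest and Cre + NFIA Δpro#3 highest.

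The ligands were all under 5 FPKM. Wnt10b (chr15:98602184-98608581, - strand) was highest in precursors that carried an NFIA transgene. At day 0 it read 1.27, 0.829 and 1.20 FPKM in ctrl, 1.15, 0.871 and 1.85 in Cre, 4.89, 4.66 and 4.48 in Cre + NFIA, and 2.63, 3.18 and 2.88 in Cre + NFIA Δpro#3. At day 7 it ranged from 0.223 to 0.512 in ctrl, 0.300 to 0.772 in Cre, 0.468 to 1.01 in Cre + NFIA and 0.928 to 1.46 in Cre + NFIA Δpro#3, each on 38 reads or fewer, and neighbouring groups overlapped. Wnt5a (chr14:29317936-29340633, + strand) split the day 0 groups another way, with 1.01, 1.11 and 0.776 for ctrl and 0.952, 1.19 and 0.917 for Cre + NFIA, against 0.390, 0.267 and 0.318 in Cre and 0.293, 0.310 and 0.236 in Cre + NFIA Δpro#3. The latter pair of groups overlapped each other and lay under the former pair. At day 7 Wnt5a ranged from 0.978 to 1.30 in ctrl, 1.38 to 1.65 in Cre, 1.56 to 1.96 in Cre + NFIA and 1.18 to 1.85 in Cre + NFIA Δpro#3.

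Wnt5b (chr6:119382549-119494336, - strand), the close relative of Wnt5a, had day 0 levels of 2.27, 2.21 and 2.36 FPKM in ctrl, 1.48, 2.24 and 2.26 in Cre, 2.90, 2.95 and 3.66 in Cre + NFIA, and 2.06, 1.56 and 1.62 in Cre + NFIA Δpro#3. By day 7 it read 3.80, 4.02 and 3.50, then 4.05, 4.24 and 3.82, then 3.00, 3.23 and 3.74, then 1.84, 2.68 and 2.55 in the same order of groups. At both days the Cre + NFIA Δpro#3 mean was the lowest of the 4. Wnt6 (chr1:74818466-74831893, + strand), a ligand known to hold precursors back much as Wnt10b does, was not detected at a usable level. It had 1 or 2 reads per library in Cre + NFIA at day 0, 0 to 2 in Cre + NFIA Δpro#3 at day 7 and 0 in the other 6 groups, and it did not pass the filter, so 9 of the 10 genes were tested.

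Axin2 (chr11:108781663-108812097, + strand) is both a target and a brake of β-catenin. It was low at day 0, at 0.791, 0.547 and 0.592 FPKM in ctrl, 0.601, 0.850 and 0.911 in Cre, 0.176, 0.299 and 0.175 in Cre + NFIA, and 0.339, 0.248 and 0.147 in Cre + NFIA Δpro#3. At day 7 it read 3.06, 2.93 and 3.24 in ctrl, 2.70, 2.51 and 2.04 in Cre, 2.22, 2.34 and 2.44 in Cre + NFIA, and 0.564, 1.55 and 1.52 in Cre + NFIA Δpro#3. Every day 7 group mean was above every day 0 group mean, the lowest day 7 library being replicate 1 of Cre + NFIA Δpro#3.

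**Figure D1:**
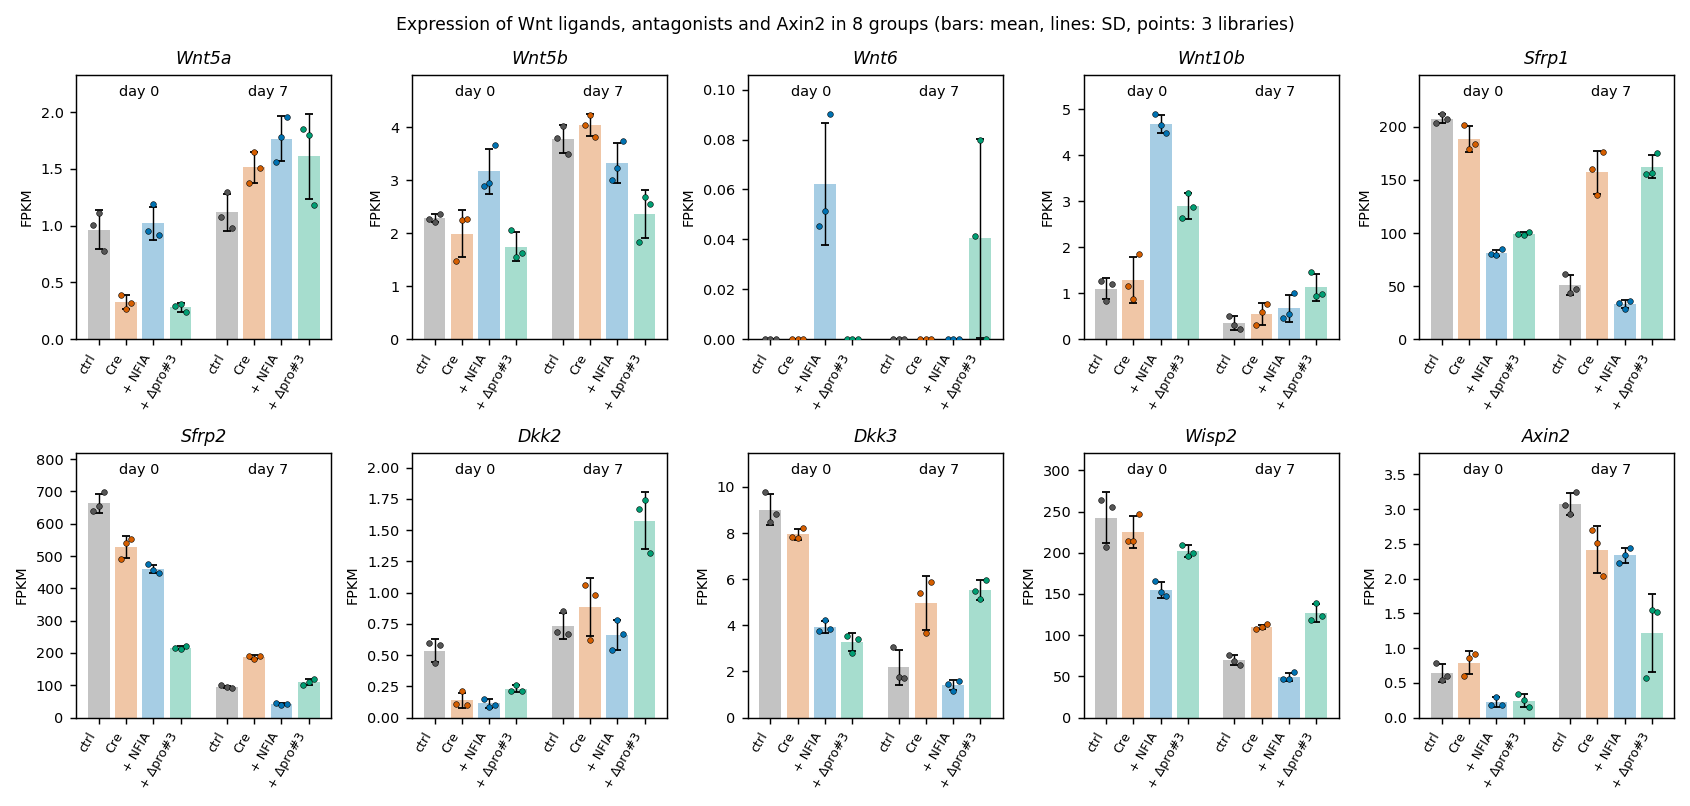
FPKM of the 10 genes in the 8 groups (vertical axes, linear, each from 0; horizontal axes, the 4 cell types at day 0 and day 7). Bars are means, lines SD and points the 3 libraries; at day 7 Sfrp1, Dkk3 and Wisp2 were higher in Cre and Cre + NFIA Δpro#3 than in ctrl and Cre + NFIA, and Wnt6 did not exceed 2 reads in any library.

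Differences between groups were tested with limma on log2(FPKM + 1) over the 12639 genes with at least 1 FPKM in at least 3 libraries, and a gene passed at a Benjamini-Hochberg adjusted p under 0.05. On this scale the change of a low gene is smaller than the ratio of its levels, so ratios of mean FPKM are given beside some of the log2 changes. A change of at least 3-fold was counted separately on the same scale, so low genes can miss it with a larger ratio of means. The study also used 3-fold for its calls, but with DESeq2.

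Differentiated cells were compared first, since the study asked whether NFIA is needed for differentiation and which form of it can be put back. Between Cre and ctrl at day 7, 3 of the 4 antagonists and Wisp2 were higher in Cre, where 58.8% of all genes passed, 36.1% higher and 22.7% lower. The 4 of 9 that passed, all higher, were Sfrp1, Sfrp2, Dkk3 and Wisp2. Sfrp1 rose by 1.62 ± 0.13 (log2 change ± SE, adjusted p = 1.61e-06), a 3.09-fold higher mean FPKM, and was the only one past 3-fold, where 0.237% of all genes were higher by that much. Sfrp2 rose by 0.98 ± 0.07 (adjusted p = 6.69e-07), Dkk3 by 0.92 ± 0.17 (adjusted p = 0.000626) and Wisp2 by 0.65 ± 0.08 (adjusted p = 3.78e-05). None of the ligands passed, with Wnt5a at 0.24 ± 0.12 (adjusted p = 0.0979), Wnt10b at 0.20 ± 0.17 and Wnt5b at 0.08 ± 0.11. Axin2 was at -0.26 ± 0.16 (adjusted p = 0.192) and Dkk2 at 0.11 ± 0.12. The median of the 9 genes was 0.24 against 0.09 over all genes tested. That background depended on the scaling, since median-of-ratios scaling put the median of all genes at -0.02 and the share of passing genes that were higher at 46.3% in place of 61.4%, while 4 of the 9 genes, all higher, passed under this scaling and under quantile normalization.

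When full-length NFIA was put back, the direction was the opposite. In Cre + NFIA against Cre at day 7, 4 of 9 genes passed, all lower (Sfrp1, Sfrp2, Dkk3 and Wisp2), where 63% of all genes passed, 27% higher and 35.9% lower. Sfrp1 fell by 2.22 on the log2 scale (SE 0.13, adjusted p = 6.81e-08), with a mean in Cre 4.77-fold that in Cre + NFIA. Sfrp2 fell by 2.12 (SE 0.07, adjusted p = 1.1e-09), and both passed 3-fold, where 1.5% of all genes were lower by that much. Dkk3 fell by 1.30 (SE 0.17, adjusted p = 3.49e-05), with a mean in Cre 3.56-fold that in Cre + NFIA, and Wisp2 fell by 1.15 (SE 0.08, adjusted p = 2.82e-07). Ligands again did not pass, Wnt5b being nearest at -0.22 ± 0.11 (adjusted p = 0.0865), Wnt5a at 0.14 ± 0.12 and Wnt10b at 0.11 ± 0.17. Axin2 was at -0.03 ± 0.16 and Dkk2 at -0.18 ± 0.12. Of all genes that passed, 42.9% were higher. Under median-of-ratios scaling this share was 53.7%. This comparison and the former share the Cre libraries, so their opposite directions are not separate evidence.

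The Δpro#3 mutant was next compared with Cre alone at day 7, where 17.7% of all genes passed, 7.7% higher and 10% lower. Sfrp1 was at 0.05 ± 0.13 (adjusted p = 0.829) and Dkk3 at 0.15 ± 0.17 (adjusted p = 0.612), and neither differed beyond the spread of the libraries. Wisp2 (0.20 ± 0.08, adjusted p = 0.133), Wnt10b (0.46 ± 0.17, adjusted p = 0.0805) and Wnt5a (0.05 ± 0.12) did not pass, although Wnt10b did with quantile scaling (adjusted p = 0.046) or all 24 libraries in the model (adjusted p = 0.0457). Sfrp2 was the antagonist that fell, by 0.76 (SE 0.07, adjusted p = 0.000146), a mean in Cre 1.7-fold that in the mutant. Wnt5b fell by 0.59 (SE 0.11, adjusted p = 0.00292) and Axin2 by 0.66 (SE 0.16, adjusted p = 0.0157), while Dkk2 rose by 0.45 ± 0.12 (adjusted p = 0.0219). Thus 1 gene was higher and 3 were lower. The Dkk2 and Axin2 calls rested on single libraries. Without Cre replicate 2 the adjusted p was 0.0898 for Dkk2 and 0.0563 for Axin2, and 2 genes passed in place of 4. Dkk2 was also lost without Cre + NFIA Δpro#3 replicate 1 or 2 (0.0789 and 0.0712), and Axin2 without Cre replicate 1 (0.0636), and with only the compared groups in the model neither passed (0.0748 and 0.0919).

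The difference between the mutant and full-length NFIA was tested directly. At day 7, 5 genes were higher in Cre + NFIA Δpro#3 than in Cre + NFIA and 2 were lower, where 69.2% of all genes passed, 40.4% higher and 28.9% lower. The higher ones were all antagonists or Wisp2, with Sfrp1 at 2.27 ± 0.13 (adjusted p = 2.73e-08, 4.93-fold in mean FPKM and past 3-fold, as were 2.33% of all genes), Dkk3 at 1.45 ± 0.17 (adjusted p = 1.02e-05), Sfrp2 at 1.36 ± 0.07 (adjusted p = 9.19e-09), Wisp2 at 1.34 ± 0.08 (adjusted p = 4.49e-08) and Dkk2 at 0.63 ± 0.12 (adjusted p = 0.000512). The mean FPKM of Dkk3 was 3.96-fold that in Cre + NFIA, although its change of log2(FPKM + 1) was under 3-fold. The lower ones were Axin2, which fell by 0.63 (SE 0.16, adjusted p = 0.00442), and the ligand Wnt5b, which fell by 0.37 (SE 0.11, adjusted p = 0.00813). Wnt10b was at 0.35 ± 0.17 (adjusted p = 0.0771, and 0.024 without Cre + NFIA replicate 3) and Wnt5a at -0.09 ± 0.12. The adipocyte and precursor marker sums given above differ between the same groups.

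Against ctrl at day 7, 3 genes were lower in Cre + NFIA and 1 was higher. Sfrp2 fell by 1.15 (SE 0.07, adjusted p = 1.29e-06), Sfrp1 by 0.60 (SE 0.13, adjusted p = 0.00862) and Wisp2 by 0.50 (SE 0.08, adjusted p = 0.00184), where 18% of all genes passed, 8.8% higher and 9.15% lower. Adipocyte marker sums were 22000 to 25600 in ctrl and 20600 to 20800 in Cre + NFIA. In the same comparison 4 of 7 precursor and fibroblast genes were lower (median -0.55) and 3 of 4 smooth muscle and pericyte genes were lower and 1 higher, with sums of 144 to 178 in ctrl and 83.3 to 98.8 in Cre + NFIA. The part of these markers in the result was not tested. Wnt5a was higher by 0.38 ± 0.12 (adjusted p = 0.0446), and this call was lost when any of 5 of the 6 libraries was left out (ctrl replicate 1 or 3, or any Cre + NFIA replicate), with adjusted p from 0.0604 to 0.138. With median-of-ratios or quantile scaling, or no filter, it did not pass either. Dkk3 (-0.38 ± 0.17), Axin2 (-0.29 ± 0.16), Wnt10b (0.31 ± 0.17), Wnt5b (-0.14 ± 0.11) and Dkk2 (-0.06 ± 0.12) did not pass, although Axin2 did with only the compared groups in the model (adjusted p = 0.0418).

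**Figure D2:**
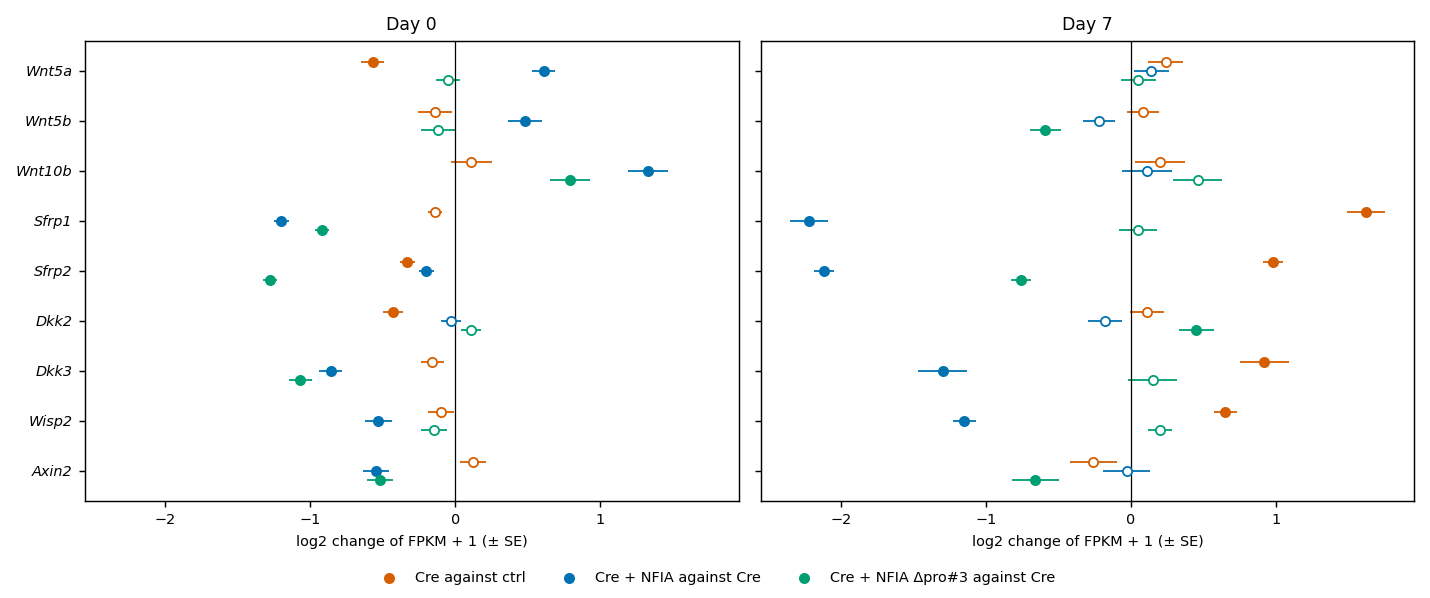
Log2 change of FPKM + 1 (horizontal axes) of the 9 tested genes between cell types at day 0 and at day 7, with SE as lines; filled points passed at an adjusted p under 0.05. At day 7 Sfrp1, Sfrp2, Dkk3 and Wisp2 were above 0 for Cre against ctrl and below 0 for Cre + NFIA against Cre, while at day 0 Wnt10b was above 0 with either form of NFIA.

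Before differentiation the libraries labelled Cre differed little from ctrl. At day 0, 3 of 9 genes passed, all lower in Cre, where 3.33% of all genes passed, 1.63% higher and 1.7% lower. Wnt5a fell by 0.57 (SE 0.08, adjusted p = 0.00678), with a mean in ctrl 2.97-fold that in Cre. Dkk2 fell by 0.43 (SE 0.07, adjusted p = 0.0096) on 3 to 6 reads per Cre library, and Sfrp2 fell by 0.33 (SE 0.05, adjusted p = 0.0105). With only these 6 libraries in the model none of the 3 passed after adjustment (adjusted p of 0.0882, 0.114 and 0.174 in the order given), when 3 of the 9 genes had an unadjusted limma p under 0.05 and limma voom on recovered reads passed 3. The Dkk2 call was also lost with quantile normalization (adjusted p = 0.123). The other 6 genes did not pass, with Sfrp1 at -0.14 ± 0.05 (adjusted p = 0.133, and 0.0368 without Cre replicate 1), Dkk3 at -0.16 ± 0.08, Wnt5b at -0.14 ± 0.12, Wisp2 at -0.10 ± 0.09, Wnt10b at 0.11 ± 0.14 and Axin2 at 0.12 ± 0.09.

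Full-length NFIA changed nearly all of these genes in precursors. In Cre + NFIA against Cre at day 0, the 3 ligands tested were higher and 5 genes were lower, where 27.6% of all genes passed, 14.7% higher and 12.9% lower. Wnt10b rose by 1.33 ± 0.14 (adjusted p = 6.14e-05), a 3.62-fold higher mean FPKM, and Wnt5a rose by 0.61 ± 0.08 (adjusted p = 0.000354), a 3.14-fold higher mean. Wnt5b rose by 0.48 ± 0.12 (adjusted p = 0.0122), and without Cre + NFIA replicate 3 its adjusted p was 0.0512, and with only the compared groups in the model 0.055. Sfrp1 fell by 1.20 (SE 0.05, adjusted p = 6.95e-08), Dkk3 by 0.86 (SE 0.08, adjusted p = 2.93e-05) and Wisp2 by 0.53 (SE 0.09, adjusted p = 0.00158). Axin2 fell by 0.55 (SE 0.09, adjusted p = 0.00151), a mean in Cre 3.63-fold that in Cre + NFIA, on 8 to 12 reads per Cre + NFIA library. Sfrp2 fell by 0.20 (SE 0.05, adjusted p = 0.0185), and this call was lost without Cre replicate 2 or 3 or Cre + NFIA replicate 2 or 3 (adjusted p from 0.0561 to 0.0678) and with only the compared groups (0.0586). Dkk2 was at -0.03 ± 0.07. Adipocyte marker sums were 82.7 to 101 FPKM in Cre and 105 to 111 in Cre + NFIA at this day.

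The mutant shared some of these differences from Cre at day 0 and not others, where 18.3% of all genes passed, 9.26% higher and 9.02% lower. Wnt10b rose by 0.79 ± 0.14 (adjusted p = 0.00381). Sfrp2 fell by 1.28 (SE 0.05, adjusted p = 3.19e-07), Dkk3 by 1.07 (SE 0.08, adjusted p = 2.32e-05), Sfrp1 by 0.92 (SE 0.05, adjusted p = 1.29e-06) and Axin2 by 0.52 (SE 0.09, adjusted p = 0.00388). Wnt5a was at -0.05 ± 0.08, Wnt5b at -0.12 ± 0.12, Wisp2 at -0.15 ± 0.09 and Dkk2 at 0.11 ± 0.07, and these did not pass. Both comparisons use the same Cre libraries, so the mutant was set against full-length NFIA directly.

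In Cre + NFIA Δpro#3 against Cre + NFIA at day 0, 2 genes were higher and 4 were lower, where 10.1% of all genes passed, 4.5% higher and 5.59% lower. The ligands were lower with the mutant. Wnt5a fell by 0.66 (SE 0.08, adjusted p = 0.000455), Wnt5b by 0.60 (SE 0.12, adjusted p = 0.00828) and Wnt10b by 0.54 (SE 0.14, adjusted p = 0.0351). The Wnt10b call was lost whichever of the 6 libraries was left out (adjusted p from 0.0601 to 0.126), and with a pseudocount of 0.1, no filter or quantile scaling (0.107, 0.0686 and 0.0741). The antagonists were divided, as Sfrp2 fell by 1.09 (SE 0.05, adjusted p = 8.97e-07) and Sfrp1 rose by 0.29 ± 0.05 (adjusted p = 0.00277, and 0.0857 with all 24 libraries in the model). Wisp2 rose by 0.38 ± 0.09 (adjusted p = 0.0246), a call lost without any 1 of 5 libraries, all but Cre + NFIA replicate 1 (adjusted p from 0.0549 to 0.0956) and without the filter (0.0536). Dkk3 was at -0.21 ± 0.08 (adjusted p = 0.153), Axin2 at 0.03 ± 0.09 and Dkk2 at 0.15 ± 0.07. Against ctrl at day 0, Cre + NFIA was higher in Wnt10b (1.44 ± 0.14, adjusted p = 3.64e-05) and Wnt5b (0.34 ± 0.12, adjusted p = 0.0496) and lower in 6 genes, where 33.2% of all genes passed, 18.8% higher and 14.3% lower. The Wnt5b value was no longer past the threshold when any of the 6 libraries was left out (adjusted p from 0.0659 to 0.165), nor with a pseudocount of 0.1, no filter or median-of-ratios scaling (0.0712, 0.0816 and 0.0645). Sfrp1 fell by 1.34 (SE 0.05, adjusted p = 4.05e-08), Dkk3 by 1.02 (SE 0.08), Wisp2 by 0.63 (SE 0.09), Sfrp2 by 0.53 (SE 0.05), Dkk2 by 0.46 (SE 0.07) and Axin2 by 0.43 (SE 0.09), while Wnt5a was at 0.04 ± 0.08. In mean FPKM the ctrl level was 4.75-fold that of Cre + NFIA for Dkk2, 2.97-fold for Axin2 and 2.55-fold for Sfrp1.

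In ctrl cells Sfrp1, Sfrp2, Dkk3 and Wisp2 fell with differentiation and Axin2 rose. From day 0 to day 7, 5 genes fell and 2 rose in ctrl, where 71% of all genes passed, 32.9% higher and 38.1% lower. Sfrp2 fell by 2.80 (SE 0.06, adjusted p = 9.37e-18), Sfrp1 by 2.02 (SE 0.10, adjusted p = 3.24e-13), Wisp2 by 1.77 (SE 0.09, adjusted p = 2.81e-13) and Dkk3 by 1.68 (SE 0.14, adjusted p = 7.01e-10), all at least 3-fold, where 2.86% of all genes were lower by that much. Their day 0 means were 7.02-fold, 4.08-fold, 3.47-fold and 4.16-fold the day 7 means. Wnt10b fell by 0.64 (SE 0.16, adjusted p = 0.00106). Axin2 rose by 1.31 ± 0.14 (adjusted p = 4.56e-08), a 4.78-fold higher mean, and Wnt5b rose by 0.54 ± 0.12 (adjusted p = 0.000287). Wnt5a (0.11 ± 0.11) and Dkk2 (0.17 ± 0.10) did not pass in ctrl.

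In Cre cells all 9 genes passed, 4 higher and 5 lower, where 51.7% of all genes did, 30% higher and 21.6% lower. Sfrp2 fell by 1.49 (SE 0.06, adjusted p = 6.33e-14), Wisp2 by 1.02 (SE 0.09, adjusted p = 7.17e-09) and Dkk3 by 0.60 (SE 0.14, adjusted p = 0.00109). Sfrp1 fell by 0.27 (SE 0.10, adjusted p = 0.0377), and this call was lost without Cre day 0 replicate 1 or 3 or Cre day 7 replicate 1 or 2 (adjusted p from 0.0581 to 0.217), with no filter (0.0599) and with only the compared groups (0.0728). Wnt10b fell by 0.55 (SE 0.16, adjusted p = 0.00608), and without Cre day 0 replicate 3 its adjusted p was 0.0544, and with only the compared groups 0.0561. Axin2 (0.94 ± 0.14), Wnt5a (0.92 ± 0.11), Wnt5b (0.76 ± 0.12) and Dkk2 (0.72 ± 0.10) rose. Of all genes that passed, 58.1% were higher, and 43.2% with quantile normalization.

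In Cre + NFIA, 5 genes fell and 3 rose, where 70.1% of all genes passed, 31.8% higher and 38.3% lower. Sfrp2 fell by 3.42 (SE 0.06, adjusted p = 5.83e-20), a day 0 mean 10.9-fold that of day 7. Wnt10b fell by 1.78 (SE 0.16, adjusted p = 2.11e-09), Wisp2 by 1.64 (SE 0.09), Sfrp1 by 1.29 (SE 0.10) and Dkk3 by 1.04 (SE 0.14), of which Wnt10b and Wisp2 passed 3-fold together with Sfrp2, where 3.31% of all genes were lower by that much. Axin2 rose by 1.45 ± 0.14 (adjusted p = 9.5e-09), a 10.8-fold higher mean from 8 to 12 reads per library at day 0. Dkk2 and Wnt5a also rose, by 0.58 ± 0.10 and 0.45 ± 0.11, and Wnt5b was at 0.05 ± 0.12.

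The Cre + NFIA Δpro#3 cells differed in sign for a pair of antagonists. There 5 genes rose and 3 fell, where 41.5% of all genes passed, 24.5% higher and 17% lower. Sfrp1 rose by 0.70 ± 0.10 (adjusted p = 1.45e-05) and Dkk3 by 0.62 ± 0.14 (adjusted p = 0.00121), where both fell in the other 3 cell types. Dkk2 rose by 1.06 ± 0.10, Wnt5a by 1.02 ± 0.11 and Axin2 by 0.80 ± 0.14. Sfrp2 fell by 0.97 (SE 0.06, adjusted p = 5.88e-11), Wnt10b by 0.88 (SE 0.16) and Wisp2 by 0.67 (SE 0.09). Wnt5b was at 0.28 ± 0.12 (adjusted p = 0.0536), and passed without replicate 1 of either day (adjusted p = 0.0308 and 0.0114), with a pseudocount of 0.1 (0.0478) and without the trend (0.0456). As a test of the difference from Cre itself, the interaction of day with Cre + NFIA Δpro#3 against Cre was 0.97 ± 0.15 for Sfrp1 (adjusted p = 0.000156) and 1.22 ± 0.20 for Dkk3 (adjusted p = 0.00025), where 18.2% of all genes passed, 7.79% higher and 10.4% lower.

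The interaction was also fitted for the other cell types. For Cre against ctrl, 6 of the 9 genes had a higher difference at day 7 than at day 0 (Wnt5a, Sfrp1, Sfrp2, Dkk2, Dkk3 and Wisp2), where 49.2% of all genes passed, 29.7% higher and 19.6% lower. The Sfrp1 value was 1.76 ± 0.15 (adjusted p = 2.42e-08). Wnt5a and Dkk2 passed at day 0, where they were lower in Cre, and did not pass at day 7. The Dkk2 interaction was lost with quantile scaling (adjusted p = 0.183). Axin2 (-0.38 ± 0.20), Wnt5b (0.22 ± 0.16) and Wnt10b (0.09 ± 0.22) did not pass, although Axin2 did with quantile scaling (adjusted p = 0.0253). For Cre + NFIA against Cre, 1 gene (Axin2) was higher and 6 were lower, where 48.9% of all genes passed, 18.8% higher and 30.1% lower. The lower ones were Sfrp2, Wnt10b, Sfrp1, Wnt5b, Wisp2 and Wnt5a, with Sfrp2 at -1.93 (adjusted p = 1.41e-12). The Axin2 call was lost when some single libraries were left out (adjusted p up to 0.101) and with a pseudocount of 5 (0.118). The Wnt5a call was lost with a pseudocount of 5 (0.074) or quantile scaling (0.234). Dkk3 (-0.44 ± 0.20, adjusted p = 0.0721) and Dkk2 (-0.14 ± 0.15) did not pass. Dkk3 did pass with a pseudocount of 0.1 (adjusted p = 0.0216), a replicate block (0.0456) or voom (0.0106), and without Cre day 7 replicate 2 (0.00806). For Cre + NFIA Δpro#3 against Cre, Sfrp1, Sfrp2 and Dkk3 were higher and Wnt5b lower. The Wnt5b call (adjusted p = 0.048) was lost when some single libraries were left out (up to 0.143) and under several alternatives, among them voom (0.0969). Wisp2 (0.35 ± 0.13, adjusted p = 0.0645), Dkk2 (0.34 ± 0.15), Wnt10b (-0.33 ± 0.22), Axin2 (-0.14 ± 0.20) and Wnt5a (0.10 ± 0.15) did not pass. Wisp2 did pass with quantile scaling (adjusted p = 0.00713), only the compared groups (0.0357) or voom (0.0464). Dkk2 did with a pseudocount of 5 (0.0455) or quantile scaling (0.0329).

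**Figure D3:**
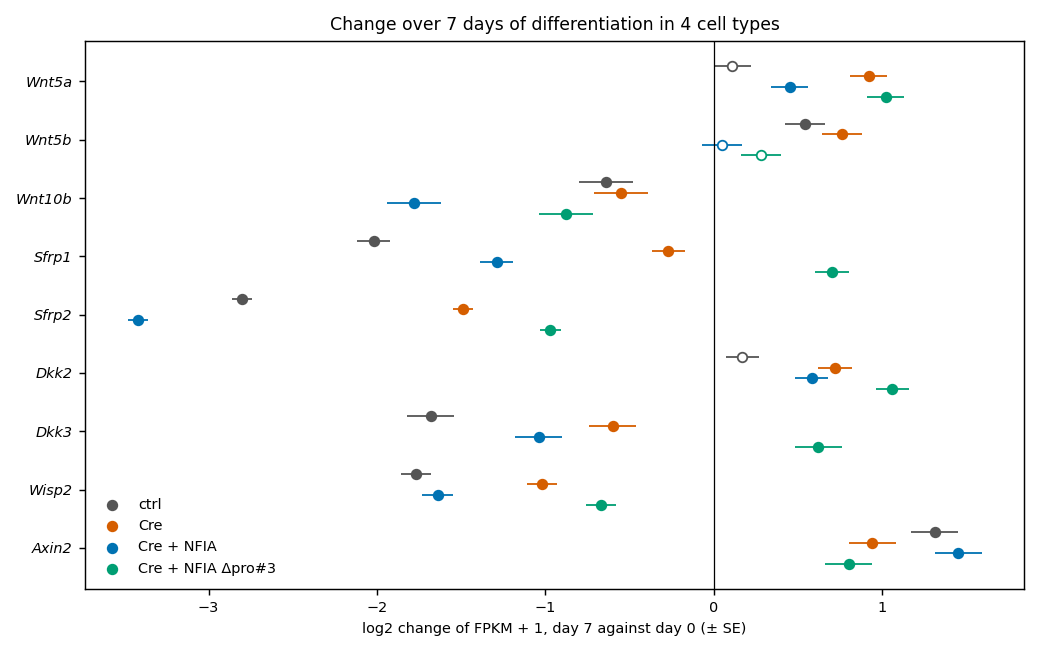
Log2 change of FPKM + 1 from day 0 to day 7 (horizontal axis) of the 9 tested genes in the 4 cell types, with SE as lines; filled points passed at an adjusted p under 0.05. Sfrp2 and Wisp2 fell and Axin2 rose in each of the 4, whereas Sfrp1 and Dkk3 lay above 0 in Cre + NFIA Δpro#3 alone.

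Other genes of the pathway were taken from a list of 90, of which 60 passed the filter. At day 7, 43 of these 60 were higher and 10 lower in Cre than in ctrl (30 and 11 under median-of-ratios scaling, and 5 to 10 lower with 1 library left out), with a median of 0.34 against 0.09 over all genes, of which 36.1% were higher and 22.7% lower. By role, the secreted antagonists and modulators that could be tested were all higher (4 tested of 13 listed). Of 12 nuclear factors 10 were higher and 2 lower, of 12 receptors 8 were higher and 3 lower. Of 14 cytoplasmic transducers 8 were higher and 4 lower. The named genes were those with the largest changes of log2(FPKM + 1) whose groups did not overlap. Nkd2, a cytoplasmic inhibitor induced by β-catenin, read 0.730, 0.807 and 1.13 FPKM with the empty vector and 4.46, 3.65 and 4.53 with Cre (1.47 ± 0.11, adjusted p = 1.31e-06). Wisp1, another CCN gene, rose by 1.45 ± 0.15 (adjusted p = 7.3e-06) and Ptk7, a co-receptor of planar polarity signalling, by 1.17 ± 0.10 (adjusted p = 2.37e-06). The receptor gene Fzd4 went the other way, from 14.2, 13.1 and 14.4 in ctrl to 5.82, 5.40 and 4.23 in Cre, a fall of 1.28 (SE 0.12, adjusted p = 5.06e-06). The membrane inhibitor Apcdd1 fell by 0.62 (SE 0.15, adjusted p = 0.0035) and the co-repressor Tle1 by 0.40 (SE 0.10, adjusted p = 0.00345).

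In Cre + NFIA against Cre at day 7, 8 of the 60 were higher and 42 lower, with a median of -0.51 against -0.06 over all genes, of which 27% were higher and 35.9% lower. The co-repressor Tle2 fell from 41.4, 39.7 and 41.8 FPKM in Cre to 8.87, 9.63 and 9.92 (adjusted p = 4.78e-09), and Ptk7 and Wisp1 fell by 1.94 (SE 0.10) and 1.76 (SE 0.15). Fzd4 rose by 1.51 ± 0.12 (adjusted p = 7.73e-07), Apcdd1 by 0.68 ± 0.15 and the ligand gene Wnt11 by 0.48 ± 0.14. For the mutant against Cre, 8 of the 60 were higher and 6 of the 60 lower, where 7.7% of all genes were higher and 10% lower. Sfrp4, a further frizzled-related protein, was at 14.3, 13 and 14.5 FPKM in Cre + NFIA Δpro#3 against 4.03, 3.23 and 5.20 in Cre (1.55 ± 0.16, adjusted p = 0.00027). Wnt16 and Wnt4 rose by 0.54 ± 0.16 and 0.49 ± 0.12, whereas Fzd4 fell by 0.99 (SE 0.12), Apcdd1 by 0.75 (SE 0.15) and Lgr5, the receptor of R-spondins, by 0.73 (SE 0.14). Without 1 library the count of this comparison ranged from 2 to 7 higher and 3 to 6 lower. Set against full-length NFIA, the mutant had 40 of the 60 higher and 8 of the 60 lower, where 40.4% of all genes were higher and 28.9% lower. Named among them were Sfrp4 (2.38 ± 0.16), Nkd2 (2.17 ± 0.11) and Tle2 (1.99 ± 0.08) among the higher and Fzd4 (-2.50 ± 0.12), Apcdd1 (-1.44 ± 0.15) and Wnt11 (-0.78 ± 0.14) among the lower. Between Cre + NFIA and ctrl 10 of the 60 passed, all lower, where 9.15% of all genes were lower. Tle2 and Rspo2 each fell by 0.85 and Ptk7 by 0.77.

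At day 0, 4 of the 60 listed genes passed in Cre against ctrl, all lower (1.7% of all genes were lower), and 0 to 2 did so with any 1 library left out. Fzd4 fell by 0.84 (SE 0.15, adjusted p = 0.0169), the planar polarity gene Prickle1 by 0.45 (SE 0.10, adjusted p = 0.0432) and Ccnd1, the cyclin D1 gene, by 0.44 (SE 0.09, adjusted p = 0.0252). Full-length NFIA against Cre gave 7 of the 60 higher and 21 of the 60 lower, where 14.7% of all genes were higher and 12.9% lower. Ccnd1 read 3.47, 4.12 and 4.02 FPKM in Cre and 19.8, 19.6 and 18.4 in Cre + NFIA, a rise of 2.06 ± 0.09 (adjusted p = 1.14e-07). Sfrp4 rose by 1.21 ± 0.16 and Wnt11 by 0.89 ± 0.11. The R-spondin gene Rspo2 fell by 1.63 (SE 0.16, adjusted p = 3.51e-05), from 5.50, 5.04 and 5.81 to 0.809, 1.20 and 1.28, and its receptor gene Lgr5 fell by 1.11 (SE 0.12) and the ligand gene Wnt2 by 1.09 (SE 0.14).

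The mutant against Cre at day 0 gave 4 of the 60 higher and 20 of the 60 lower (13 to 19 lower with 1 library left out). Of all genes 9.26% were higher and 9.02% lower. Wnt2 fell by 1.32 (SE 0.14), Lgr5 by 1.18 (SE 0.12) and Rspo2 by 1.15 (SE 0.16), and Sfrp4 rose by 1.22 ± 0.16, Wnt4 by 0.51 ± 0.11 and the Dishevelled gene Dvl1 by 0.47 ± 0.08. Between mutant and full-length NFIA, 5 of the 60 were higher and 6 of the 60 lower, where 4.5% of all genes were higher and 5.59% lower. Ccnd1 was at 4.84, 4.14 and 4.56 FPKM with the mutant, a fall of 1.88 (SE 0.09, adjusted p = 7.5e-07) from Cre + NFIA, and Fzd4 and Apcdd1 fell by 1.36 (SE 0.15) and 1.34 (SE 0.13). Wnt4 read 7.01, 6.49 and 6.31 with the mutant and 1.79, 1.72 and 1.59 with full-length NFIA (1.49 ± 0.11, adjusted p = 1.25e-05), and Notum, which removes the lipid of Wnt proteins, rose by 1.04 ± 0.14 and Wisp1 by 0.58 ± 0.10. Against ctrl, Cre + NFIA gave 6 of the 60 higher and 22 of the 60 lower, where 18.8% of all genes were higher and 14.3% lower. Named were Ccnd1 (1.62 ± 0.09), Sfrp4 (0.88 ± 0.16) and Wnt11 (0.68 ± 0.11), and on the lower side Rspo2 (-1.71 ± 0.16), Wnt2 (-1.32 ± 0.14) and Lgr5 (-1.16 ± 0.12).

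**Figure D4:**
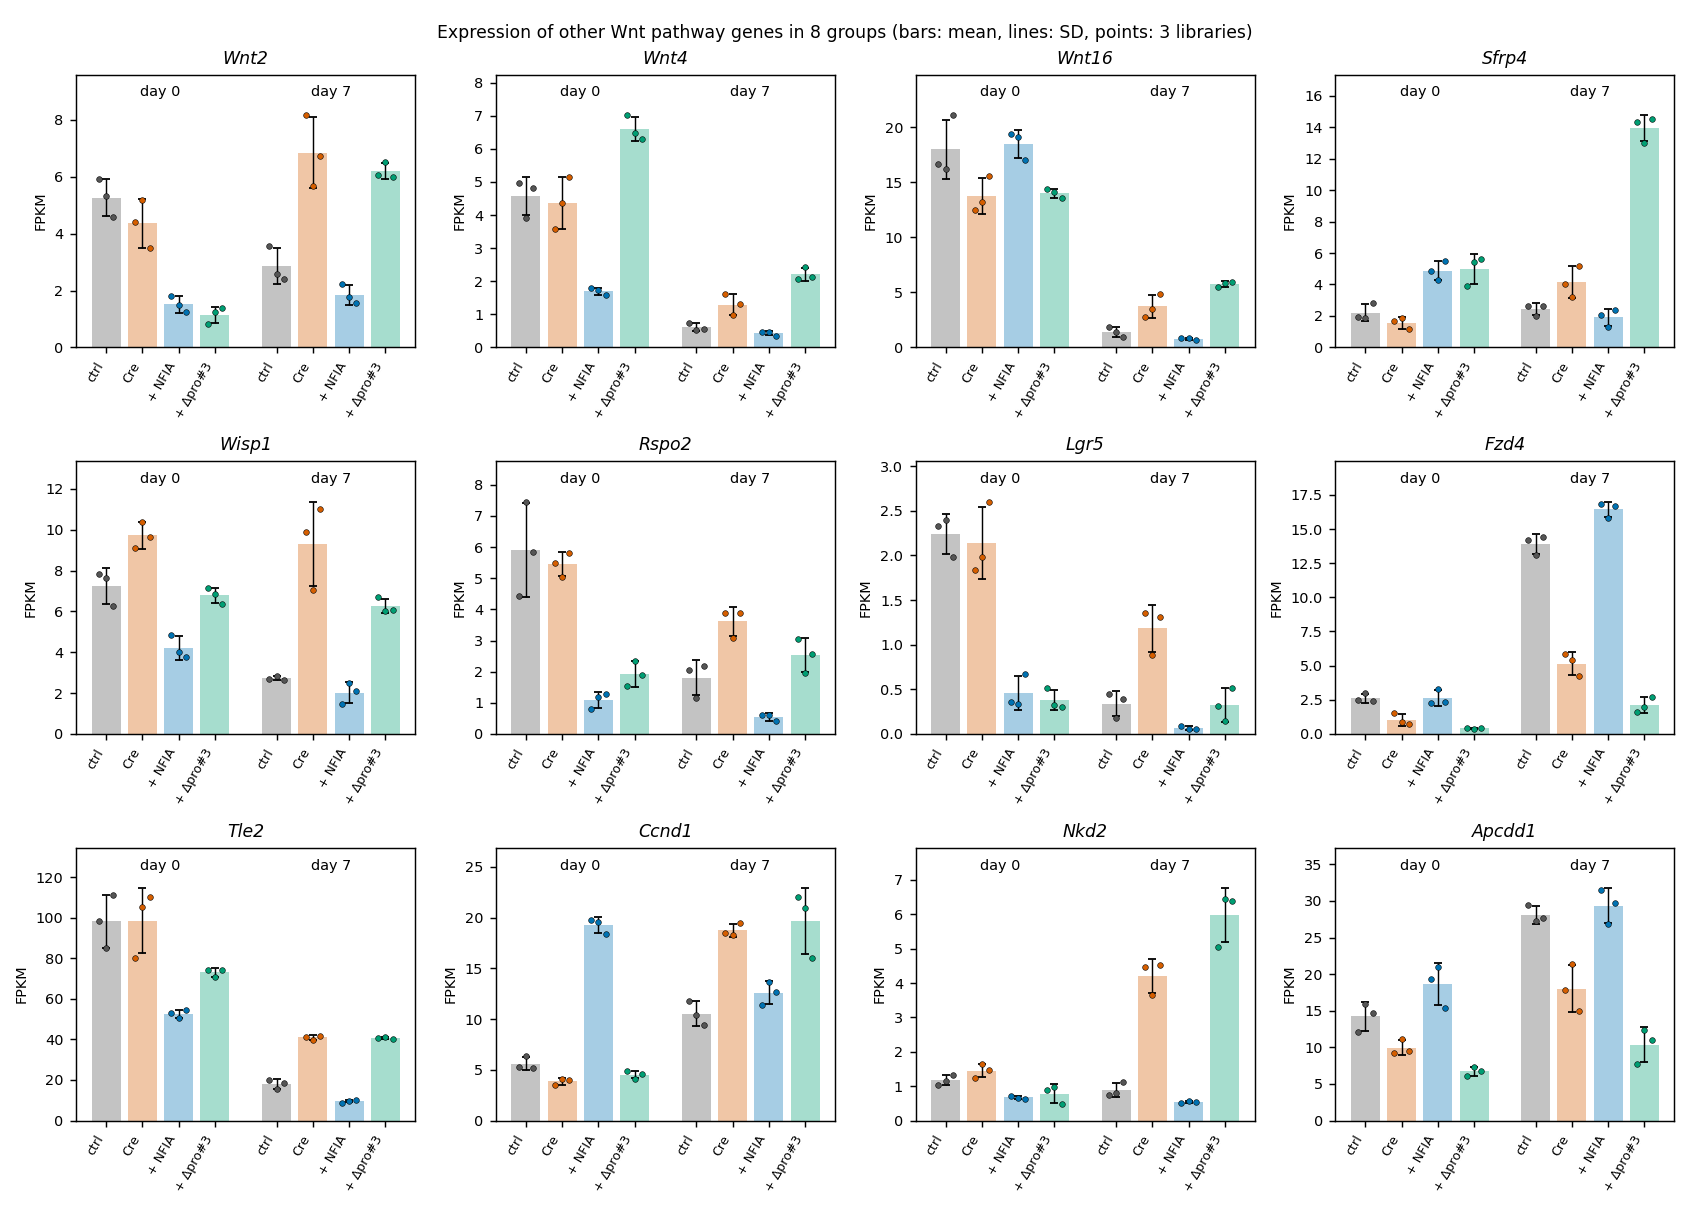
FPKM of 12 other Wnt pathway genes in the 8 groups (vertical axes, linear, each from 0; horizontal axes, the 4 cell types at day 0 and day 7). Bars are means, lines SD and points the 3 libraries; Fzd4 and Apcdd1 at day 7 were highest in ctrl and Cre + NFIA, where Tle2, Nkd2 and Wisp1 were lowest, and Ccnd1 at day 0 was highest in Cre + NFIA.

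From day 0 to day 7, 14 of the 60 rose and 32 fell in ctrl, 20 rose and 10 fell in Cre, 13 rose and 30 fell in Cre + NFIA, and 30 rose and 9 fell in Cre + NFIA Δpro#3. Over all genes 32.9% rose and 38.1% fell in ctrl, 30% and 21.6% in Cre, 31.8% and 38.3% in Cre + NFIA, and 24.5% and 17% in Cre + NFIA Δpro#3. The Cre balance turned with quantile normalization, to 15 higher and 17 lower, and in Cre + NFIA Δpro#3 5 to 8 fell with 1 library left out. Wnt16 fell in all 4 cell types, with log2 changes of -2.99 (SE 0.14) in ctrl, -1.66 in Cre, -3.46 in Cre + NFIA and -1.15 in Cre + NFIA Δpro#3, and so did Tle2, with -2.39, -1.23, -2.36 and -0.83 in the same order. On this scale Wnt4 was among the 3 largest falls in ctrl (-1.79), Cre (-1.22) and Cre + NFIA Δpro#3 (-1.24), and Fzd2 in Cre + NFIA (-1.73). Fzd4 rose by 2.04 ± 0.14 in ctrl and 2.27 ± 0.14 in Cre + NFIA and by 1.60 ± 0.14 in Cre. Tle1 rose by 1.15 ± 0.09 in ctrl and 0.83 ± 0.09 in Cre + NFIA, Apcdd1 by 0.94 ± 0.15 in ctrl and Fzd3 by 0.66 ± 0.11 in Cre + NFIA. Ccnd1 and Nkd2 were among the 3 named rises in the other cell types, at 2.02 ± 0.10 and 1.09 ± 0.12 in Cre and 1.90 ± 0.10 and 1.97 ± 0.12 in Cre + NFIA Δpro#3, where Wnt2 also rose by 1.75 ± 0.15.

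Lastly, the genes with the most similar profiles over the 24 libraries were listed, as a description, since libraries of a group are not independent points and the 2 days dominate the range. Sfrp1 was most like Antxr1 (Pearson's r = 0.992 of log2(FPKM + 1) across 24 libraries) and Itpkb (0.987), and Wisp2 most like Bmp1 (0.990) and Agrn (0.989). Dkk3 was most like Zfp827 (0.975) and Kat6b (0.965), Sfrp2 most like Sned1 (0.968) and Plekha4 (0.965), and Axin2 most like Aplp2 (0.972) and Col6a2 (0.962). For the ligands the values were lower, Wnt10b with Dusp8 (0.938) and Gfpt2 (0.928), Wnt5a with Fhl1 (0.932) and Prss12 (0.924), and Wnt5b with Cebpa (0.839), itself on the adipocyte list, and Ssfa2 (0.834). Among the 9 genes themselves, Sfrp1 and Dkk3 were closest (r = 0.96), followed by Sfrp2 and Wisp2 (r = 0.90), and Wnt10b and Axin2 ran most opposite (r = -0.87).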

How the data were processed

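RNA of 24 libraries (8 groups of 3, grouped by the labels) was sequenced from stranded poly(A) libraries. The authors aligned reads to mm9 with STAR 2.5.3a, counted unique alignments on the matching strand and deposited FPKM per gene; the gene annotation is not given in the sources used here. FPKM times length gave whole reads within 0.05 for all values (100%), from which depth was taken. Of the 24825 listed rows, 26 had symbols turned into dates and 2 repeated symbols were dropped.

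Values were tested as log2(FPKM + 1) with limma 3.58.1 (trend) in R 4.3.3, two-sided, for genes with at least 1 FPKM in at least 3 libraries, with Benjamini-Hochberg adjustment over all 12639. Within-day comparisons used the 12 libraries of that day, and those between days all 24. Every one of the 10 genes is reported in every comparison where it could be tested. Of the 90 other pathway genes, up to 3 higher and 3 lower with the largest change among those that passed with groups not overlapping are named, and for each of the 9 tested genes the 2 genes with the highest Pearson's r. For Dkk2 the latter are not reported here. Genes and lists were chosen with earlier results of these data known. Adipocyte, precursor, endothelial, leukocyte, mesothelial, smooth muscle and skeletal muscle lists served as checks.

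Alternatives were pseudocounts 0.1 and 5, median-of-ratios and quantile scaling, no filter or a filter at mean FPKM 5, other samples in the model, a replicate block, no trend, each library left out, and limma voom on recovered reads. The scaling and left-out-library counts of the pathway list were added after seeing the data. On simulated counts for Cre against ctrl at day 7, 200 of 200 genes changed 6-fold were recovered, with 13 false calls among 12229 genes. The changed genes were drawn from those with a mean of at least 5 FPKM. Recovery of lower genes or smaller changes was therefore not checked. Replicates differed by more than sampling noise (chi-square per degree of freedom 2.17 to 15.1 over 24 pairs), so each counted as a library. Positions are NCBIM37 (the mm9 sequence) from GENCODE; promoter sequences are RefSeq.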

Additional observations from a re-analysis of the deposited data

Results flagged for a closer look

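The following genes differed between day 0 and day 7 in how cell types compared, by the interaction of day with cell type (limma over all 24 libraries, log2 of FPKM + 1, 3 libraries per group). Each value is the day 7 difference minus the day 0 difference.

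For Cre against ctrl, 6 of 9 genes passed, all positive, where 49.2% of all genes passed. The values were 1.76 for Sfrp1 (adjusted p = 2.42e-08), 1.31 for Sfrp2 (adjusted p = 1.54e-09), 1.08 for Dkk3 (adjusted p = 0.000131), 0.81 for Wnt5a (adjusted p = 0.000196), 0.75 for Wisp2 (adjusted p = 6.23e-05) and 0.55 for Dkk2 (adjusted p = 0.00438). The Dkk2 value did not pass with quantile scaling (adjusted p = 0.183). The day 0 and day 7 differences were -0.14 and 1.62 for Sfrp1 and -0.33 and 0.98 for Sfrp2. They were -0.16 and 0.92 for Dkk3 and -0.10 and 0.65 for Wisp2. For Wnt5a they were -0.57 and 0.24 and for Dkk2 -0.43 and 0.11, and neither gene passed at day 7. Their day 0 calls were lost with only the compared groups in the model (adjusted p = 0.0882 and 0.114).

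For Cre + NFIA against Cre, 48.9% of all genes passed. The values were -1.93 for Sfrp2 (adjusted p = 1.41e-12), -1.23 for Wnt10b (adjusted p = 0.00011), -1.02 for Sfrp1 (adjusted p = 8.21e-06), -0.71 for Wnt5b (adjusted p = 0.00116), -0.62 for Wisp2 (adjusted p = 0.000428) and -0.47 for Wnt5a (adjusted p = 0.0155), against 0.52 for Axin2 (adjusted p = 0.0374). Leaving out any of 7 libraries ended the Axin2 call (adjusted p from 0.0599 to 0.101): Cre day 0 replicates 2 and 3, Cre day 7 replicate 3, Cre + NFIA day 0 replicates 1 and 3, and Cre + NFIA day 7 replicates 2 and 3. The Axin2 value also did not pass with a pseudocount of 5 (adjusted p = 0.118). The Wnt5a value did not pass with a pseudocount of 5 (adjusted p = 0.074) or quantile scaling (adjusted p = 0.234). The day 0 and day 7 differences were -0.20 and -2.12 for Sfrp2, -1.20 and -2.22 for Sfrp1 and -0.53 and -1.15 for Wisp2. They were 1.33 and 0.11 for Wnt10b, 0.61 and 0.14 for Wnt5a, 0.48 and -0.22 for Wnt5b and -0.55 and -0.03 for Axin2, and at day 7 none of these 4 passed.

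For Cre + NFIA Δpro#3 against Cre, 18.2% of all genes passed. The values were 1.22 for Dkk3 (adjusted p = 0.00025), 0.97 for Sfrp1 (adjusted p = 0.000156), 0.52 for Sfrp2 (adjusted p = 0.000283) and -0.48 for Wnt5b (adjusted p = 0.048). The Wnt5b call was lost without any of 7 libraries (adjusted p from 0.05 to 0.143): Cre day 0 replicate 1, Cre day 7 replicates 1 and 2, each Cre + NFIA Δpro#3 library of day 0, and Cre + NFIA Δpro#3 day 7 replicate 1. It was also lost with a pseudocount of 0.1 (adjusted p = 0.0742), no filter (0.0755), median-of-ratios scaling (0.0536), only the compared groups (0.117) and voom (0.0969). In this last contrast the day 0 and day 7 differences were -1.07 and 0.15 for Dkk3 and -0.92 and 0.05 for Sfrp1. They were -1.28 and -0.76 for Sfrp2 and -0.12 and -0.59 for Wnt5b. For Dkk3 and Sfrp1 the difference thus lay at day 0, and neither passed at day 7. All 3 contrasts use the Cre libraries, and marker sums differ between the cell types at day 7, whose part in these values was not tested.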

How the results depend on the processing

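Of 153 values of the 9 genes over all comparisons, 102 passed. Over 1016 alternative values of these 102, 983 stayed past the threshold in the same direction, 33 no longer passed and 0 reversed; over 714 values with 1 library left out, 51 no longer passed and 0 reversed. Of 502 alternative values that started short of the threshold, 14 passed. Requiring a mean of 5 FPKM, which by construction drops the ligands, Dkk2, Dkk3 and Axin2 and leaves Sfrp1, Sfrp2 and Wisp2, left 1 gene passing for Cre against ctrl and 2 for Cre + NFIA Δpro#3 against Cre at day 0, 3 in each of the other day 0 comparisons, 1 for Cre + NFIA Δpro#3 against Cre and 3 for Cre + NFIA Δpro#3 against Cre + NFIA at day 7, 3 in each day 7 against day 0 comparison, and 3, 3 and 2 for the interactions. With only the compared groups in the model, 0 genes passed for Cre against ctrl at day 0 (limma; 3 at an unadjusted p under 0.05, 3 with voom) and 2 for Cre + NFIA Δpro#3 against Cre at day 7; the cause was not tested.

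With 1 library left out, the day 0 counts were 3 to 4, 6 to 8, 5 to 5, 4 to 5 and 7 to 7 (Cre against ctrl, Cre + NFIA against Cre, Cre + NFIA Δpro#3 against Cre and against Cre + NFIA, Cre + NFIA against ctrl). In that order the day 7 counts were 4 to 4, 4 to 4, 2 to 4, 7 to 8 and 3 to 4. Over time they were 7 to 7 in ctrl, 7 to 9 in Cre, 8 to 8 in Cre + NFIA and 8 to 9 in Cre + NFIA Δpro#3, and for the interactions 6 to 6, 6 to 8 and 3 to 4.

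Replicate numbers were not shown to pair samples: in 0 of 14 comparisons did every pair correlate over 0.1, with mean r from -0.159 to 0.056. With the replicate number as a block, the counts were 3, 8, 5, 6 and 7 at day 0, 4, 4, 4, 7 and 3 at day 7, 7, 9, 8 and 8 over time, and 6, 8 and 4 for the interactions. Depth limits Dkk2, Wnt5a, Axin2 and Wnt10b most, in the groups where they are lowest.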

Other observations

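Within 2 groups at day 7 the libraries differed in adipocyte marker level. Among the Cre libraries, replicate 2 had the highest summed adipocyte markers (9434 FPKM) and the lowest Sfrp1 (136) and Dkk3 (3.65). Replicate 3 had the lowest sum (4388) and the highest Sfrp1 (176) and Dkk3 (5.88), and replicate 1 lay between for each. Among the Cre + NFIA Δpro#3 libraries, replicate 1 had the lowest sum (840) and the lowest Axin2 (0.564) and Wnt5b (1.84), against sums of 1931 and 2121, Axin2 of 1.55 and 1.52 and Wnt5b of 2.68 and 2.55 in replicates 2 and 3. Sfrp1 and Dkk3 were not ordered there as among the Cre libraries, at 156, 157 and 175 for Sfrp1 and 5.49, 5.14 and 5.97 for Dkk3 in replicates 1, 2 and 3. Axin2 was 2.7, 2.51 and 2.04 and Wnt5b 4.05, 4.24 and 3.82 in replicates 1, 2 and 3 of Cre. With 3 libraries a group, no relation was tested.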
